A study of Homo sapiens with 24 samples.

Results

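The genes described here are 35 genes of cholesterol and fatty acid synthesis, out of 27274 gene names on the array. They were chosen by name as enzymes, regulators and transporters of these pathways, and every probe that carries one of the names was taken, which gave 44 probes out of 34127. All 35 genes had at least 1 probe bright enough to be tested, beside 15150 genes in all. For 34 of the 35 the probe was well above background on all 24 arrays. The exception was SC5DL, which was well above background on 4 of 6 untreated arrays, on 5 of 6 arrays with doxycycline alone and on all arrays with butyrate, so that it entered through the butyrate arrays.

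The cells were HCT-116, a human colorectal carcinoma line, in the form of a single stable clone that carries vectors for the Tet repressor and for DN-Tcf4 under doxycycline control. DN-Tcf4 is a truncated Tcf4 that cannot bind beta-catenin and so blocks the sites through which Wnt signalling acts. The clone was left untreated (Ctl), given 5 mM sodium butyrate (NaB), given 4 µg/ml doxycycline (Doxy), or given both agents (DoxyNaB), and the time in butyrate was 17.5 hr. Each of 6 experiments gave 1 one-colour array per treatment, and all 4 groups carry the Tet repressor and the DN-Tcf4 vector, with 0 arrays of cells that lack them. Doxycycline as an agent and the induced DN-Tcf4 therefore cannot be told apart.

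Cholesterol is built from acetyl-CoA. Condensing enzymes and mevalonate kinases make isoprenoid units, these are joined to squalene, and squalene is closed to lanosterol and trimmed to cholesterol. Fatty acids start from the same acetyl-CoA and are made by acetyl-CoA carboxylase and fatty acid synthase, then lengthened by elongases and given double bonds by desaturases. Both branches are driven by the sterol regulatory element binding proteins (SREBPs), membrane-bound factors that the escort protein SCAP carries out of the endoplasmic reticulum when sterols are low and that INSIG proteins retain when sterols are high. Butyrate is a main fuel of the colonic epithelium and an inhibitor of histone deacetylases.

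SREBPs work beside the CCAAT-binding factor NF-Y at many of these genes, so the promoters were searched for the letters of both. Shown as examples are 5 of them, including that of SREBF2, which holds a sterol regulatory element. They are RefSeq sequences of build GRCh38.p14, cover the 250 bases before the annotated start, and run 5′ to 3′ on the strand of the gene. Capitals mark CCAAT, or ATTGG where it lies on the other strand, and in SREBF2 also the match to the sterol regulatory element TCACNCCAC. HMGCS1 lies at chr5:43313413-43313662 on the minus strand, MVK at chr12:109573544-109573793, INSIG1 at chr7:155297628-155297877, SREBF2 at chr22:41832855-41833104 and SCD at chr10:100346983-100347232, the last 4 on the plus strand.
HMGCS1: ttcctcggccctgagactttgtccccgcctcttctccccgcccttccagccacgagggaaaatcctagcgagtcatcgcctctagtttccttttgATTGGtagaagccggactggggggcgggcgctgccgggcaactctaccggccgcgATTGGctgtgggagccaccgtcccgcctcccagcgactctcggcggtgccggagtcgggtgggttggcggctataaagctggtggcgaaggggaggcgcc
MVK: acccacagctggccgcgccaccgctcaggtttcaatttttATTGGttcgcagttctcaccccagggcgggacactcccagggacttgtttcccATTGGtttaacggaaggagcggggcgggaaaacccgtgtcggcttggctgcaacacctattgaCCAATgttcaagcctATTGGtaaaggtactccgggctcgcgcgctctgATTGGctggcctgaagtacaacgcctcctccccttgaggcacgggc
INSIG1: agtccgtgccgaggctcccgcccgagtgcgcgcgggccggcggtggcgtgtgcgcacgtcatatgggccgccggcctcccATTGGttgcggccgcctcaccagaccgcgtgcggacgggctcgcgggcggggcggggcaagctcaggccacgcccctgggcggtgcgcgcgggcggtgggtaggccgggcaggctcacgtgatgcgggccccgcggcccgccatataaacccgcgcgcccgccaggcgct
SREBF2: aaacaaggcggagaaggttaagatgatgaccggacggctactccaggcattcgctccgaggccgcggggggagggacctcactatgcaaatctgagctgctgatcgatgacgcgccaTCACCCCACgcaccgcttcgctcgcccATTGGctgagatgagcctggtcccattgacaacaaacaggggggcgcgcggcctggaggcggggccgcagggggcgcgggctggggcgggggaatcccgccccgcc
SCD: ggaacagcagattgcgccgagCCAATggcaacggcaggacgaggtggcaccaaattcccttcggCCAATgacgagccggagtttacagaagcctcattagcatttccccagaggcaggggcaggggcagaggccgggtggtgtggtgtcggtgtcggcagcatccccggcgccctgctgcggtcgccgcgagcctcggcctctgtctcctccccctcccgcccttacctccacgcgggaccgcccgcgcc
MVK held 5 CCAAT boxes, HMGCS1 and SCD 2 each, and INSIG1 and SREBF2 1 each. In windows of 300 bases (250 before the start and 50 after it, both strands, any promoter of the gene), CCAAT was present in 21 of the 31 members found in the promoter table, 67.7%, and in 39.7% of all 27305 genes in that table. By role, 13 of 15 cholesterol synthesis enzymes held it and 5 of 8 fatty acid genes. It was present in 9 of 12 members that rose with butyrate and in 2 of 3 that fell. The strict letters TCACNCCAC were in 1 member, SREBF2, and in 1.39% of all genes. The E-box CACGTG was in 6 members (LSS, SC5DL, INSIG1, SCAP, ELOVL5 and ABCA1) and in 8.77% of all genes. The TCF motif CTTTGAA was in 1 member, ELOVL6, and in 5.47% of all genes. These are matches of letters in a window and say nothing of binding, and no motif contains another. ACAT2, FDFT1, SQLE and FASN had no entry in the table.

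A level below is a probe's log2 signal after subtraction of its array's 75th percentile on the same scale, and a change is a difference of such levels. It compares a gene with itself between arrays and does not rank genes. The share of spots well above background was 78.4% to 88.1% on arrays of experiments 2 to 4 and 52.7% to 62.6% on the rest. Negative controls had a mean net signal of 48.4 to 115 on 22 arrays and stood higher on 2, NaB in experiment 3 (161) and DoxyNaB in experiment 2 (248.9). The epithelial markers EPCAM, KRT8, KRT18, KRT19 and CDH1 were well above background on every array, and VIL1 was not tested. They did not move one way with butyrate. EPCAM fell by 1.44 in NaB/Ctl and by 1.49 in DoxyNaB/Doxy, while CDH1 rose by 1.00 and 0.88 and KRT19 by 0.98 and 0.62. Of the markers of other cell types, PTPRC, CD3E, COL1A2, DCN and PECAM1 had no probe that could be tested, whereas COL1A1 was well above background on all arrays with a change of 1.10 in NaB/Ctl, and CDH5 was tested with a change of 0.46 (adjusted p = 0.17). The part of these markers in the results was not tested. TCF7L2, the gene of Tcf4, had 3 tested probes. In DoxyNaB/Doxy its probes changed by 6.07, 4.05 and -1.69, and the corresponding values in Doxy/Ctl were 0.29, -0.18 and 0.36, none past the threshold. In NaB/Ctl they were 1.91, 0.92 and -0.07. Only 1 Ctl, 3 NaB and 3 Doxy arrays, but all 6 DoxyNaB arrays, had the first of these probes well above background, so the size of its changes is uncertain. The rise of TCF7L2 with doxycycline alone thus did not pass the threshold on any probe, and the first 2 probes were highest with both agents. Which probes lie in the truncated vector copy was not tested.

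The first comparison asked how the pathway genes respond to butyrate when DN-Tcf4 is not induced (NaB/Ctl). Past a fold of 2, 7 of 18 cholesterol synthesis enzymes, both INSIG genes and 2 of 3 sterol transport genes rose, while 3 of 9 fatty acid and lipid genes fell and 1 rose. At a fold over 2 and an adjusted p under 0.01, 12 of 35 members rose, beside 21.2% of all genes tested, and 3 fell, beside 11.2%. SC5DL, which entered through the butyrate arrays, is 1 of the 12, and 11 of 34 rose without it. At the p alone 20 rose and 9 fell, beside 41% and 28.5% of all genes. The median change of the members was 0.70, and that of all genes tested was 0.18. In bulk RNA, fewer cells of a kind and less RNA per cell cannot be told apart.

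These signed counts depend on the scaling of the arrays. With arrays scaled to their median after a floor of 5, the median of all genes moved to -0.57 in NaB/Ctl, 2 members rose (TM7SF2 and LPIN1) and 10 fell, among them FDPS, CYP51A1, EBP and SREBF2. With quantile normalization 9 rose and 2 fell, and with normexp background correction 8 rose and 1 fell. The shares of all genes called under these scalings are not given here, so these counts show only that the calls move. Relative to the median of all genes, cholesterol synthesis enzymes lay 0.67 higher under the main scaling and between 0.62 and 0.81 higher under the other 4. Fatty acid and lipid genes lay 0.82 lower and between 0.51 and 0.82 lower. The order of the 2 groups was thus the same under all 5 scalings, but whether an enzyme with a small change rose or fell was not. Only normexp and quantile normalization could change that order much. The other scalings shift each array as a whole, apart from the floor.

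**Figure D1:**
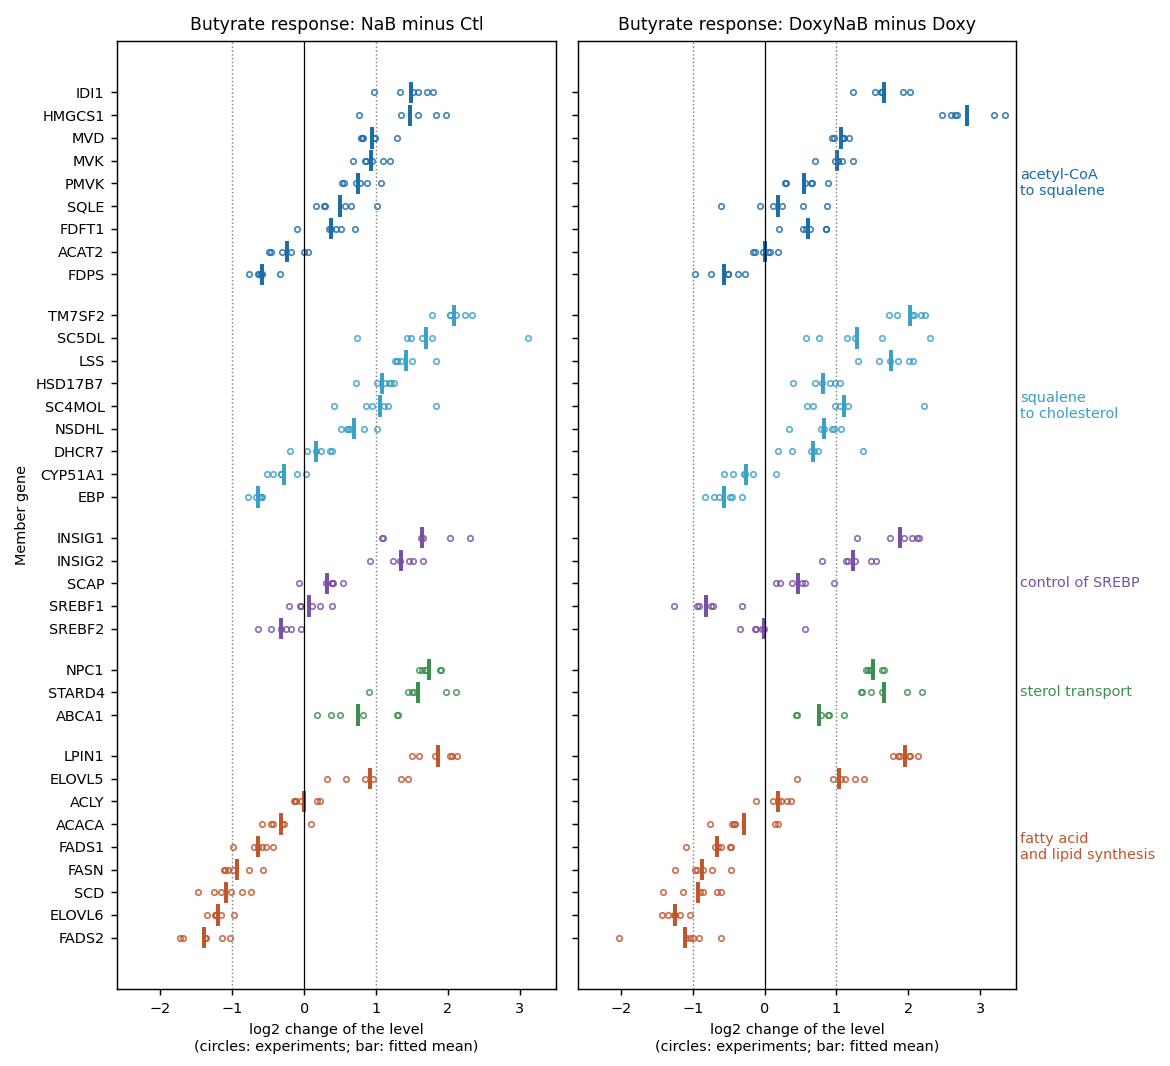
Log2 change of the level of each of the 35 members with butyrate, without doxycycline (left) and with it (right), grouped by role. Circles are experiments (6, or 5 for HMGCS1 on the left), bars are fitted means and dotted lines mark a fold of 2 in either direction. Most cholesterol enzymes lie right of 0, and FADS1, FASN, SCD, ELOVL6 and FADS2 lie left of it in both panels.

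**Figure D2:**
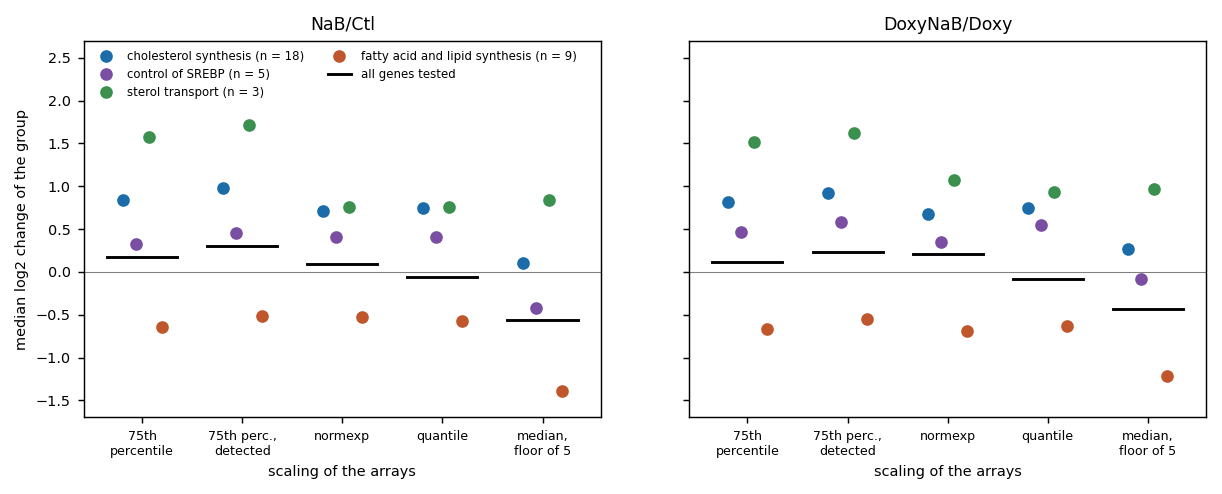
Median log2 change of 4 groups of members (points) and of all genes tested (black line) under 5 scalings of the arrays, for NaB/Ctl and DoxyNaB/Doxy. In NaB/Ctl the line moves from 0.18 to -0.57, and fatty acid genes lie below it and cholesterol synthesis enzymes above it under each scaling. Of the scalings, only normexp and quantile normalization could change that order much.

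In the first stage, from acetyl-CoA to squalene, 2 of 9 enzymes rose past the fold and 0 fell, a share near the 21.2% of all genes that rose. IDI1, which isomerizes isopentenyl diphosphate, rose by 1.48 ± 0.30 (SD between 6 experiments), and HMGCS1, the cytosolic synthase of HMG-CoA, by 1.47 ± 0.47 (5 experiments). The mevalonate kinase MVK (0.94), the phosphomevalonate kinase PMVK (0.75) and the decarboxylase MVD (0.94) passed the p but stayed under the fold, and each was higher in 6 of 6 experiments. Squalene synthase FDFT1 rose by 0.38, and squalene epoxidase SQLE changed by 0.49 with an adjusted p of 0.021. The other direction was seen for farnesyl diphosphate synthase FDPS, which fell by 0.59 ± 0.14 in 6 of 6 experiments, and for the acetyl-CoA thiolase ACAT2, which fell by 0.23 in 4 of 6 (adjusted p = 0.0083).

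From squalene to cholesterol 5 of 9 enzymes rose past the fold and 0 fell, beside 21.2% and 11.2% of all genes, and SC5DL is 1 of the 5. This count depends on the scaling. With normexp and with quantile normalization SC5DL, SC4MOL and HSD17B7 missed the fold, which left TM7SF2 and LSS. The sterol C14 reductase TM7SF2 had the highest change of all members by their brightest probes. Its levels ran from -1.86 (median -1.46) to -1.32 on Ctl arrays and from 0.45 (0.50) to 0.79 on NaB arrays. The groups did not overlap, and the gap gave a change of 2.09 ± 0.19, a fold of 4.25. The sterol C5 desaturase SC5DL lay between -6.71 (median -4.50) and -3.51 in Ctl and between -3.60 (-3.02) and -2.52 in NaB. Its ranges touched, its change was 1.70 ± 0.78, and the lowest Ctl value came from experiment 1, where the probe was not well above background. The size of this change is therefore uncertain, and with normexp it was 0.38 (adjusted p = 0.22) and with quantile normalization 0.66 (adjusted p = 0.22). Lanosterol synthase LSS, which closes the ring, changed by 1.42 ± 0.22 on its brighter probe and by 2.91 ± 0.19 on the other. HSD17B7, the 3-ketosteroid reductase, had 3 probes with changes of 1.08, 0.91 and 1.15, although a near-identical pseudogene may share its signal. Its brightest probe missed the fold with normexp (0.87), quantile normalization (0.93) and in experiments 2 to 4 (0.95). With median scaling its change was 0.34 (adjusted p = 0.16). The methyl oxidase SC4MOL changed by 1.05 ± 0.47, and missed the fold without experiment 1 (0.90), with the slide as block (0.87), in experiments 2 to 4 (0.74), and with normexp (0.68) or quantile normalization (0.68).

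The remaining 4 enzymes of this stage stayed under the fold. NSDHL, which removes the C4 carbon, rose by 0.70, and the last-step reductase DHCR7 changed by 0.17 with an adjusted p of 0.23. The isomerase EBP fell by 0.65 ± 0.07 in 6 of 6 experiments, and the demethylase CYP51A1 changed by -0.28 with an adjusted p of 0.0101, just over the threshold. FDPS, EBP and ACAT2 therefore moved against most enzymes of the chain, with the reservation on scaling above.

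Among the genes that control SREBP, both INSIG genes rose, and the SREBP genes did not rise on their brightest probes. INSIG1, itself a known SREBP target, lay between -1.62 (median -0.43) and 0.33 in Ctl and between 0.69 (1.14) and 1.52 in NaB, without overlap, for a change of 1.63 ± 0.49. INSIG2 changed by 1.35 ± 0.26, and its other probe by 1.22. The escort SCAP rose by 0.32 (adjusted p = 0.0062), SREBF2, which encodes the SREBP of cholesterol genes, fell by 0.32 (adjusted p = 0.0078), and SREBF1 changed by 0.07 ± 0.21 on its brighter probe (adjusted p = 0.58).

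In sterol transport, 2 of 3 members rose past the fold, beside 21.2% of all genes. NPC1, which exports cholesterol from lysosomes, ran from -1.38 (median -1.19) to -1.08 in Ctl and from 0.43 (0.51) to 0.66 in NaB. This was a separation with little spread, and the change of 1.73 ± 0.13 had the lowest adjusted p of all members, 3.8e-14. STARD4, a cytosolic sterol carrier, changed by 1.58 ± 0.43. It missed the fold with normexp (0.76), quantile normalization (0.76, adjusted p = 0.11) and median scaling (0.84). In DoxyNaB/Doxy it missed the fold with quantile normalization (0.93, adjusted p = 0.052). The exporter ABCA1 rose by 0.74 ± 0.48, under the fold, and its second probe was not bright enough to be tested.

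Of 9 fatty acid and lipid genes 3 fell past the fold and 1 rose, beside 11.2% and 21.2% of all genes. At the p alone 5 fell and 2 rose, beside 28.5% and 41% of all genes, and the median change was -0.65. The delta-6 desaturase FADS2 lay between -0.37 (median -0.29) and 0.19 in Ctl and between -2.02 (-1.71) and -0.95 in NaB, a change of -1.39 ± 0.28. The elongase ELOVL6 lay between 0.42 (median 0.70) and 0.75 in Ctl and between -0.94 (-0.53) and -0.22 in NaB, a change of -1.20 ± 0.13. For the stearoyl-CoA desaturase SCD the ranges were 1.89 (median 2.09) to 2.54 and 0.90 (1.05) to 1.15, a change of -1.09 ± 0.27. None of the 3 overlapped between treatments, and each was lower in 6 of 6 experiments. SCD missed the fold with normexp (-0.95), quantile normalization (-0.97) and the 75th percentile over probes detected on all arrays (-0.96). It also missed it in experiments 5 and 6 only (-0.80). ELOVL6 missed it with normexp (-0.98) and with the mean over its probes (-0.77). A dimmer second probe of ELOVL6 changed by -0.34 ± 0.86 with an adjusted p of 0.29.

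Fatty acid synthase FASN fell by 0.93 ± 0.21 and the delta-5 desaturase FADS1 by 0.65 ± 0.19, both in 6 of 6 experiments and under the fold. Acetyl-CoA carboxylase ACACA changed by -0.33 (adjusted p = 0.021), and ATP citrate lyase ACLY, which supplies cytosolic acetyl-CoA, by -0.01 (adjusted p = 0.94). The exceptions were LPIN1 and ELOVL5. LPIN1, a phosphatidate phosphatase of glyceride synthesis, ran from -0.65 (median -0.39) to -0.05 in Ctl and from 1.41 (1.45) to 1.62 in NaB. It changed by 1.86 ± 0.26, and by 2.09 on its second probe. ELOVL5, an elongase of polyunsaturated fatty acids, rose by 0.91 ± 0.43 under the fold.

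**Figure D3:**
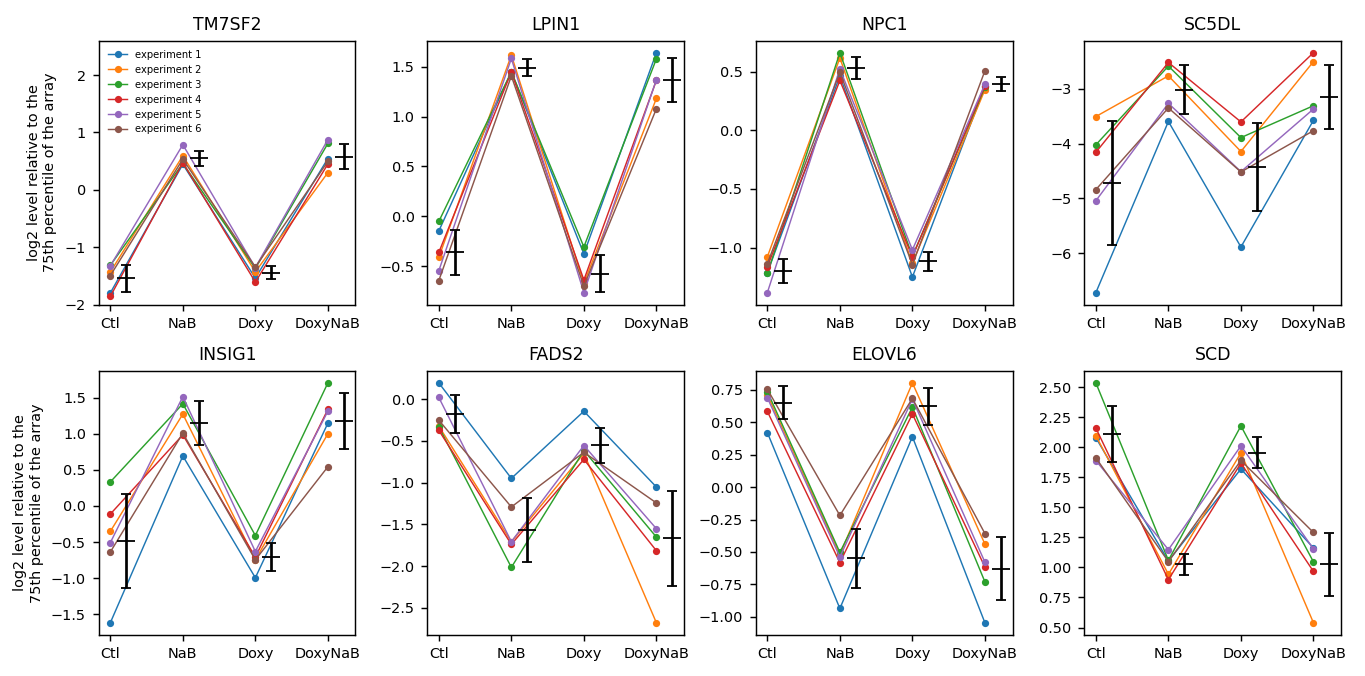
Levels of the 5 members that rose most and the 3 that fell past the fold in NaB/Ctl, on every array of the 4 treatments. Coloured lines join the arrays of an experiment, and the black bar beside each treatment is the mean with its SD (n = 6). In TM7SF2, LPIN1, NPC1 and INSIG1 both butyrate treatments lie above both treatments without butyrate, and in FADS2, ELOVL6 and SCD they lie below.

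The second comparison asked for the butyrate response with doxycycline present (DoxyNaB/Doxy). It uses different arrays from the first. In it 14 members rose past the fold (13 of 34 without SC5DL), beside 18.9% of all genes, and 2 fell, beside 12.3%, and at the p alone 21 rose and 8 fell, beside 38.4% and 30%. The median of the members was 0.67, and that of all genes was 0.12. Of the 15 members called in NaB/Ctl and the 16 called here, 13 were called in both in the same direction, which is 86.7% of the first and 81.2% of the second, and 0 were called in opposite directions. Over all genes tested the same shares were 85.0% and 88.4%, with 0 in opposite directions, so the overlap of the members was near that of all genes. HSD17B7 (0.81) and SCD (-0.93) missed the fold in the second comparison, and MVK (1.01), MVD (1.06) and ELOVL5 (1.04) reached it, with values close to the boundary on both sides.

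TM7SF2 changed by 2.02 ± 0.19 with doxycycline, LPIN1 by 1.95 ± 0.13, INSIG1 by 1.88 ± 0.32, NPC1 by 1.51 ± 0.10 and SC5DL by 1.28 ± 0.63. The change of SC5DL was 0.78 with normexp (adjusted p = 0.012) and 0.45 with quantile normalization (adjusted p = 0.41), without a call. The fallers ELOVL6 and FADS2 changed by -1.25 ± 0.14 and -1.11 ± 0.48. On the DoxyNaB array of experiment 2, with the highest negative controls, FADS2 had its lowest level, -2.68, against a median of -1.60. Without that array and the NaB array of experiment 3 FADS2 (-0.94) and MVK (0.95) missed the fold, and 1 member fell past it, ELOVL6. With the median scaling 7 members rose and 8 fell. Within scan dates, 12 members rose and 3 fell in experiments 2 to 4 and 13 rose and 1 fell in experiments 5 and 6. The values for NaB/Ctl were 12 and 4, and 14 and 2. No share of all genes on the same arrays is given beside these counts, so they are not a result particular to the members. The arrays of experiment 1 with and without butyrate were on different slides and scan dates, so in that experiment butyrate cannot be told apart from these.

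Whether the butyrate response itself differed with doxycycline was tested as the interaction, the response without doxycycline minus the response with it. It passed for 2 of 35 members at an adjusted p under 0.01. One was positive (SREBF1), beside 1.09% of all genes, and 1 was negative (HMGCS1), beside 0.244%. The same genes were the 2 that differed between DoxyNaB and NaB, HMGCS1 higher, beside 0.66% of all genes, and SREBF1 lower, beside 2.11%. Both comparisons share the arrays with butyrate.

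HMGCS1 is measured here by a probe at chr5:43325874-43325933 of NCBI36, the coordinates given with the array. Its levels ran from 0.18 (median 0.61) to 0.90 on Ctl arrays, from 1.66 (2.15) to 2.42 on 5 NaB arrays, from 0.02 (0.34) to 0.56 on Doxy arrays and from 2.89 (3.14) to 3.46 on DoxyNaB arrays. All DoxyNaB arrays lay above all NaB arrays, and these above all arrays without butyrate. The spot of the NaB array of experiment 6 had an outlier flag and was dropped; its level, 1.89, lay within the range of the other 5. Butyrate raised HMGCS1 2.77-fold without doxycycline (1.47) and 7.07-fold with it (2.82 ± 0.36). The interaction was -1.35 ± 0.37 with an adjusted p of 0.00069, in the same direction in 5 of 5 experiments, and -1.36 with the flagged spot kept. In DoxyNaB/NaB the level was higher by 1.11 ± 0.29 (adjusted p = 8.5e-05), whereas Doxy/Ctl gave -0.24 (adjusted p = 0.51).

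Within scans the interaction of HMGCS1 was -1.37 in experiments 2 to 4 (adjusted p = 0.093) and -1.17 in experiments 5 and 6 (adjusted p = 0.26), so that the size was near that of all experiments without a call. Normexp (-1.11, adjusted p = 0.044) ended the call too, as did median scaling (-1.60, adjusted p = 0.18).

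SREBF1, whose product drives fatty acid genes, gave levels on its brighter probe (chr17:17656144-17656203 of NCBI36) from 2.07 (median 2.30) to 2.59 in Ctl, 2.05 (2.40) to 2.53 in NaB, 2.11 (2.31) to 2.48 in Doxy and 1.02 (1.59) to 1.79 in DoxyNaB. The first 3 treatments overlapped, and all 6 DoxyNaB arrays lay below them. The butyrate change was 0.07 without doxycycline and -0.81 ± 0.31 with it, an interaction of 0.88 ± 0.32 (adjusted p = 0.0018) with the same sign in 6 of 6 experiments. In DoxyNaB/NaB the level was lower by 0.88 ± 0.26 (adjusted p = 2.4e-05).

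A dimmer probe of SREBF1 at chr17:17656029-17656088 did not share this pattern. It changed by 0.95 ± 0.51 in NaB/Ctl (adjusted p = 0.0028) and by 0.66 ± 0.74 in DoxyNaB/Doxy (adjusted p = 0.029), with an interaction of 0.30 and an adjusted p of 0.82. With the mean over both probes the interaction was 0.59 (adjusted p = 0.06). The call on the brighter probe was lost without experiment 1 (adjusted p = 0.01004), 3 (0.0161), 4 (0.0118) or 5 (0.0257), with normexp (0.034) and with median scaling (0.98), with values from 0.69 to 1.00. Within scans it was 0.92 in experiments 2 to 4 (adjusted p = 0.19) and 0.93 in experiments 5 and 6 (adjusted p = 0.24). Without the 2 arrays of highest negative controls it was 0.78 (adjusted p = 0.0028).

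**Figure D4:**
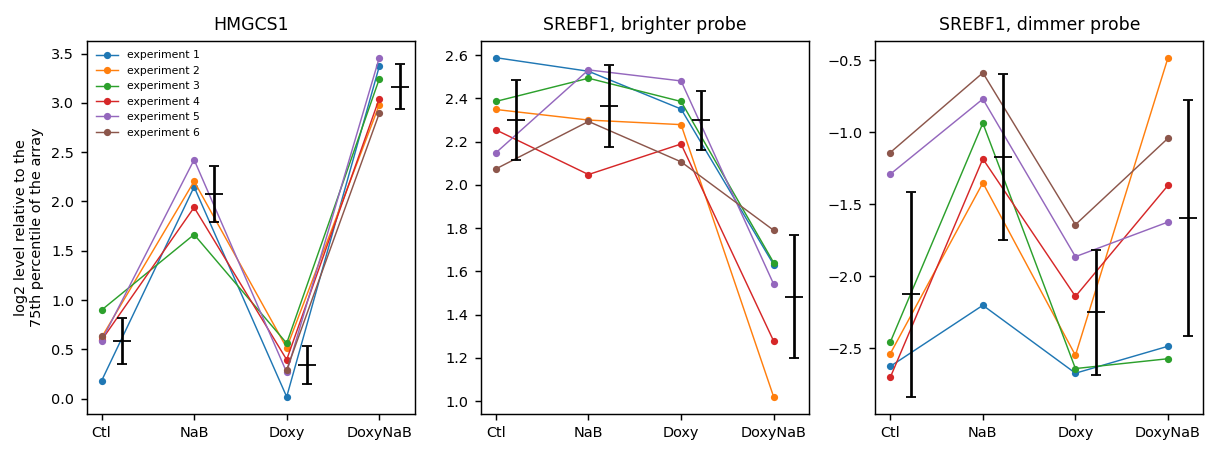
Levels of HMGCS1 and of the brighter and the dimmer probe of SREBF1 on every array. Lines join the arrays of an experiment, black bars are the mean and SD (n = 6, or 5 for HMGCS1 in NaB). HMGCS1 is highest in DoxyNaB (2.89 to 3.46), the brighter SREBF1 probe is lowest there (1.02 to 1.79), and the dimmer SREBF1 probe has a wide spread with no such drop.

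Of the 9 fatty acid and lipid genes 0 passed the interaction, beside 1.09% of all genes positive and 0.244% negative. Their changes in DoxyNaB/NaB lay between -0.12 and 0.12. SREBF2 gave 0.26 in DoxyNaB/NaB (adjusted p = 0.19), higher in 6 of 6 experiments. HSD17B7 had DoxyNaB levels that all lay below the NaB levels, with a change of -0.29 (adjusted p = 0.04).

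Doxycycline alone (Doxy/Ctl) called 0 of 35 members in limma, beside 0.449% of all genes higher and 0.099% lower. The lowest adjusted p was 0.12, for MVD. At an unadjusted p under 0.05 limma gave 0 higher and 10 lower, beside 7.37% and 5.96% of all genes. The methods' paired t-test at an unadjusted p under 0.01 gave 0 higher and 5 lower, beside 3.64% and 4.07%, and 0 of them after adjustment. Changes lay between -0.39 and 0.29. They were negative for 29 of 35 members and for 46.2% of all genes, with a median of -0.08 beside 0.01 for all genes, and 9 members, among them HMGCS1, MVK, IDI1, LSS and DHCR7, were lower in every experiment, as were 7.37% of all genes. Of the 18 cholesterol synthesis enzymes the median was -0.17.

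Levels of the members were also correlated between arrays of the same treatment, to a different degree by role. After each level was centred on its treatment and experiment, the median correlation over all 595 pairs of members was 0.29 on 24 arrays, beside 0.03 over all pairs of the 14641 genes measured on every array. It was 0.49 over the 36 pairs of fatty acid and lipid genes, 0.22 and 0.25 in the stages before and after squalene, 0.29 in sterol transport (3 pairs), and -0.26 over the 10 pairs of genes that control SREBP. Centred on the treatment alone the values were 0.16 for all members, 0.39 for fatty acid and lipid genes, -0.15 for control of SREBP and 0.01 for all genes. The highest pairs were FDPS with NSDHL (0.92) and SREBF1 with ACACA (0.89), and the lowest was MVK with SC4MOL (-0.79). Points of one array share its hybridization and background, and these values are a description.

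Beyond the 35 members, 37 related lipid genes were examined, of which 35 could be tested and ELOVL2 and ELOVL4 could not. In NaB/Ctl 14 of the 35 rose past the fold and 2 fell, beside the 21.2% and 11.2% of all genes, and in DoxyNaB/Doxy 11 rose and 3 fell, beside 18.9% and 12.3%, with medians of 0.48 and 0.53. Of the 7 genes of sterol storage and transport 5 rose. The sterol exporter ABCG1, among the 5, changed by 3.15 ± 0.58, although only 3 of 6 Ctl arrays had this probe well above background. It thus entered through another treatment, and the size of its change is uncertain. The sterol carrier STARD5 changed by 2.22 ± 0.27 and the lysosomal acid lipase LIPA by 2.11 ± 0.43 over 4 pairs. CYP27A1, a sterol hydroxylase, changed by 1.45, and the cholesterol acyltransferase SOAT1 by 1.22. The falling genes were TMEM97, a regulator of NPC1, with -1.67 ± 0.18, and malic enzyme ME1, a source of NADPH for fatty acid synthesis, with -1.14 ± 0.41.

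Among 9 genes of SREBP processing and sterol sensing, 1 rose past the fold and 0 fell, beside 21.2% and 11.2% of all genes. It was MYLIP, a ubiquitin ligase induced by sterols through LXR (1.89 ± 0.23), and ERLIN1 (-0.74) and NR1H2 (-0.60) fell at the p alone. The proteases MBTPS1 and MBTPS2 changed by 0.12 (adjusted p = 0.19) and -0.37 (adjusted p = 0.05). Beside 21.2% of all genes, 8 of 19 genes of acyl-CoA, fatty acid and isoprenoid use rose past the fold. They included the acyl-CoA synthetases ACSL1 (1.57) and ACSL3 (1.09), the acetyl-CoA synthetase ACSS2 (1.14), the carboxylase ACACB (1.55), malonyl-CoA decarboxylase MLYCD (1.47) and the acyltransferases GPAM (1.18) and DGAT2 (1.39). The rise of ACACB stands beside the -0.33 of the other carboxylase gene, ACACA. LBR, which shares the C14 reductase activity of TM7SF2, fell by 0.62 ± 0.34.

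The interaction was positive and passed for 1 of 35 related genes, beside 1.09% of all genes. This was MID1IP1, which promotes the activity of acetyl-CoA carboxylase. It fell by 0.74 ± 0.13 without doxycycline and by 1.42 ± 0.16 with it, an interaction of 0.68 ± 0.21 (adjusted p = 0.00019), the same sign as SREBF1 and in 6 of 6 experiments. DGAT2 missed the threshold with 0.74 ± 0.48 (adjusted p = 0.013).

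**Figure D5:**
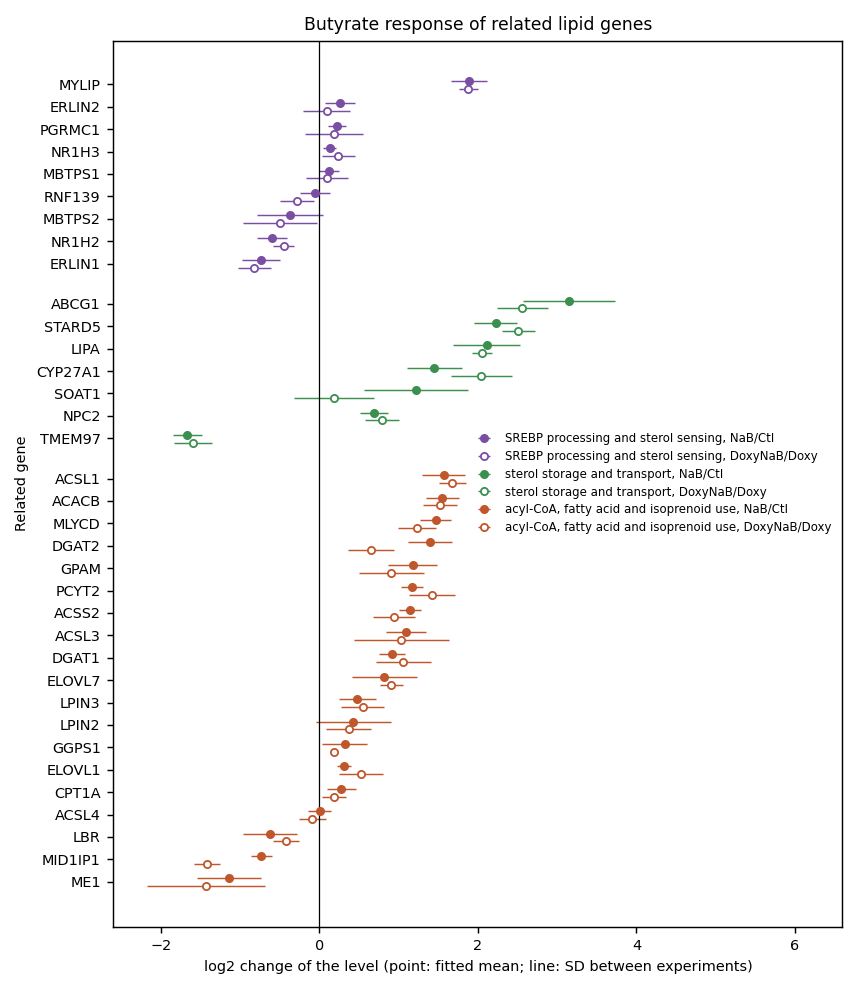
Log2 change of 35 related lipid genes with butyrate without doxycycline (filled) and with it (open), by role. Lines are the SD between experiments. ABCG1, STARD5 and LIPA lie farthest right, TMEM97 and ME1 farthest left in NaB/Ctl, and MID1IP1 falls further with doxycycline (-1.42 against -0.74).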

How the data were processed

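The RNA of 24 cultures of HCT-116 cells was read on one-colour Agilent arrays. As deposited, an array is a table of 44495 spot intensities written by Agilent Feature Extraction 9.5.3.1, in which background and spatial trend had been removed within the array by the authors' software and no step had scaled arrays to each other. Controls were left out, as were outlier-flagged spots (359 to 795 per array), spots of a probe were averaged, and levels are log2 of the processed intensity minus that of the 75th percentile of non-control spots, a signal of 381.8 to 1345. Array number and signal over background limit the precision. A probe was tested when well above background (the software's test, multiplier 13) on all 6 arrays of a treatment, which left 18979 probes. Missing spots were dropped from the fit. A gene is represented by its tested probe with the highest mean level.

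All 24 arrays were fitted in limma 3.58.1 (R 4.3.3; lmFit, eBayes) with treatment and experiment as block, and p-values were adjusted over all probes (Benjamini-Hochberg). Butyrate comparisons were called at a fold over 2 and an adjusted p under 0.01, the others at the p alone. Pairing by experiment comes from the labels and from the paired test in the methods. Levels centred on treatment correlated within an experiment with r from -0.218 to 0.894, 1 pair under 0.1. Between experiments, arrays of different treatments had r from -0.720 to 0.847, so the range within experiments does not by itself show the pairing. Experiments 2 to 6 each have 1 slide with all treatments, experiment 1 has 2, and the files show 4 scan dates (scans). In experiment 1 the arrays with and without butyrate differ in slide and scan date. On simulated data the fit recovered 182 of 200 changed probes in NaB/Ctl and 342 of 400 in the interaction, with 0 and 7 false calls. The planted changes were larger than the interactions of HMGCS1 and SREBF1, and lay in few probes with independent noise. These rates therefore check the code and do not give the rates for the members.

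Members and lists were chosen with earlier results of these data known. Values are given in full for members passing the interaction or called in Doxy/Ctl or DoxyNaB/NaB, the 5 rising and 5 falling most in NaB/Ctl (3 fell), and members with probes called in opposite directions; of related genes, the 3 rising and 3 falling most (2 fell). Other genes are given by their change, and a few genes of the related list are not reported here. Alternatives were normexp (offset 50), quantile normalization, median scaling after a floor of 5, other percentiles, filters, blocks, thresholds and probe rules, the methods' paired t-test, and leaving out experiments, scans or arrays. Keeping spots with an outlier flag was added after seeing the data. Symbols and promoters come from RefSeq tables (GRCh38.p14), where 31 of 35 members matched; probe coordinates are those of the files (NCBI36), without annotation. Python 3.11.15, numpy, pandas and matplotlib were used for tables and plots.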

Additional observations from a re-analysis of the deposited data

Results flagged for a closer look

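In 21 of the 140 sets of levels (35 members in 4 treatments) 1 array lay far from the rest of its treatment by Dixon's criterion, where chance gives about 1 in 20. Experiment 1 held 13 of the 21. On its Ctl array LSS (0.42), SCAP (1.76) and SC4MOL (-3.40) stood apart, and on its Doxy array PMVK (1.61), LSS (0.38), SCAP (1.55), FADS2 (-0.15), INSIG2 (-1.04), ELOVL5 (0.0478) and SC4MOL (-3.51). Its NaB array stood apart for FDPS (3.64), SC4MOL (-1.57) and ELOVL5 (0.75). The other Ctl arrays had SC4MOL between -1.71 and -1.18. Changes of SC4MOL within experiments, NaB minus Ctl, lay between 0.41 and 1.84, with 1.84 in experiment 1.

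The DoxyNaB array of experiment 2, which had the highest negative controls, was low for IDI1 (1.65), SQLE (-0.66) and NSDHL (1.504). Single arrays also stood apart for FDFT1 (3.33) and HSD17B7 (-0.65) in Ctl of experiment 3, SQLE (-0.0943) in NaB of experiment 6, DHCR7 (3.02) in DoxyNaB of experiment 3, and NPC1 (0.51) in DoxyNaB of experiment 6. The part of background in these values was not tested.

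The butyrate response differed with doxycycline for HMGCS1 (interaction -1.35) and SREBF1 (0.88), as tested in the report.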

How the results depend on the processing

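Members called higher and lower in NaB/Ctl (12 and 3) and DoxyNaB/Doxy (14 and 2) moved both with the scaling and with the fold rule. Shares of all genes under the other scalings are not given beside the counts. Median scaling gave 2 and 10 in NaB/Ctl and 7 and 8 in DoxyNaB/Doxy, and 0 members in each direction in DoxyNaB/NaB and the interaction. With normexp 1 member was lower in NaB/Ctl, 9 were higher and 1 lower in DoxyNaB/Doxy, 0 were higher in DoxyNaB/NaB and 0 passed the interaction. A fold over 1.5 gave 7 lower in NaB/Ctl and 6 in DoxyNaB/Doxy. Without a fold rule these were 9 and 8, with 20 higher in NaB/Ctl and 21 in DoxyNaB/Doxy, and a fold of 2 on the other comparisons left 0 lower in DoxyNaB/NaB and 0 higher in the interaction. In DoxyNaB/Doxy 1 member was lower with the percentile over detected probes, the mean over probes, experiments 5 and 6 only, or without the 2 arrays of highest negative controls. In DoxyNaB/NaB and the interaction (1 higher and 1 lower each) 0 were called in either direction by the methods' paired t-test after adjustment, in experiments 2 to 4 only and in experiments 5 and 6 only. Unadjusted, that test called 5 lower in Doxy/Ctl and 2 lower in DoxyNaB/NaB, and an adjusted p under 0.05 gave 2 lower in DoxyNaB/NaB. The mean over probes left 0 higher in the interaction. The cause was not tested, except that scans hold fewer arrays.

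Leaving out 1 experiment at a time gave 12 to 12 higher and 3 to 4 lower in NaB/Ctl, 12 to 14 and 1 to 2 in DoxyNaB/Doxy, 0 to 0 and 0 to 0 in Doxy/Ctl, 1 to 1 and 1 to 1 in DoxyNaB/NaB, and 0 to 1 higher and 1 to 1 lower in the interaction. The 1 lower in DoxyNaB/Doxy came without experiment 2.

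Without the replicate block, which drops the pairing of arrays by experiment, 11 members were higher and 3 lower in NaB/Ctl, 13 and 2 in DoxyNaB/Doxy, and the calls for HMGCS1 and SREBF1 in the interaction had adjusted p of 0.00067 and 0.0089. Calls were lost for SC4MOL in NaB/Ctl (adjusted p = 0.011) and SC5DL in DoxyNaB/Doxy (adjusted p = 0.013). For single members, 4167 of the 4335 values under the alternatives kept their status, called or not called. A call was lost by 89, gained by 79 and turned in direction by 0. Most results were not called in the main setting, so most of the 4167 are results that stayed without a call. Testing every probe, dim ones included, changed 0 calls, and the filter on all 24 arrays left SC5DL untested and changed 0 of the others.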
